A study of Mus musculus with 6 samples.

Results

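Inflammatory chemokines and their receptors were followed in the spleens of mutant mice from a transposon screen and of wild-type mice. The genes were chosen by symbol: those that begin with Ccl, Cxcl, Xcl, Cx3cl, Ccr, Cxcr, Cx3cr or Ackr and a digit, with a summed count of 20 or more over the 6 libraries. The white pulp homing genes Ccl19, Ccl21a, Ccl21b, Ccl21c, Cxcl13, Ccr7, Cxcr5 and Ccr9 were left out. This gave 49 genes of the 31771 in the count table: 29 ligand genes, 19 receptor genes and 1 pseudogene. A further 4 matching symbols fell under the minimum, among them Ccl20, with a summed count of 19, while the lowest gene inside it was Ccl1, with 22.

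Polyadenylated RNA was sequenced from frozen pieces of whole spleen of 3 mutant and 3 control animals, all labelled C57BL/6. The mutants carried VEC-Cre, which is Cre recombinase driven by the promoter of VE-cadherin, with SB Transposase and onc2. Sleeping Beauty (SB) moves a transposon, here onc2, and inserts it at many genomic positions, and onc2 is a version built to activate or disrupt genes near the insertion. VE-cadherin is an endothelial adhesion protein, but blood cells that descend from embryonic endothelium are also recombined by such a driver, so the mutation is not limited to vessels. Controls were labelled WT. The labels do not give age. The design text states that cellular composition was the question. Libraries held 72902118 to 79258116 counts. The mutants differed more among themselves than the controls did (biological coefficient of variation 73.2% in mutants and 17.1% in controls). The female transcript Xist was at 1513 and 580 CPM in mutants 1 and 2 and at 0.423 to 0.663 CPM in mutant 3 and the controls, with Ddx3y of the Y chromosome in the opposite order, so the sex difference of mutants 1 and 2 from the controls cannot be told apart from genotype in those animals. The design text speaks of 3 animals in each group, and no label pairs a mutant with a control. Bulk RNA cannot separate fewer cells of a type from less RNA per cell.

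Chemokines are small secreted proteins that guide leukocytes along concentration gradients. Their names follow the spacing of conserved cysteines (CC, CXC, C and CX3C), and most ligands bind G protein-coupled receptors of the matching class. Inflammatory chemokines are switched on in myeloid, stromal and endothelial cells by factors such as NF-kB and interferon-activated proteins, while receptors mark which leukocytes can answer. Atypical receptors (Ackr) bind chemokines without G protein signalling and clear or carry them. In spleen, Cxcl12 from stroma holds Cxcr4-bearing progenitors and plasma cells, and Ccr2, Cxcr2 and Cx3cr1 mark monocyte and neutrophil traffic.

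The promoters of Cxcl1, Cxcl2 and Cxcl3 are shown first, because these neutrophil-attracting neighbours on chromosome 5 share a run of letters, and that of Cxcl10 for its interferon response letters. The promoter of Cxcl5 was not searched. Promoter sequences from RefSeq (GRCm38.p6, 250 bases before to 50 after the start) matched 37 of the 49 genes. They were searched on both strands for the kB letters GGGANNTTCC, the interferon response letters GAAANNGAAA and the GATA letters AGATAA, motifs chosen after expression values were known. In the 4 sequences printed, capitals mark kB and interferon response matches, with overlapping matches joined.
Cxcl1, chr5:90890995-90891294, plus strand: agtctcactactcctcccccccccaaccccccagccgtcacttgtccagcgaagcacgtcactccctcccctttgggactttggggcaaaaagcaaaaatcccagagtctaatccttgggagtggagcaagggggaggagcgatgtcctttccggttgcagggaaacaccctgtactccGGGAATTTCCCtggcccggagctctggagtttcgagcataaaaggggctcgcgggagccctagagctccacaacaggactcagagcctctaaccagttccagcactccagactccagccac
Cxcl2, chr5:90903649-90903948, plus strand: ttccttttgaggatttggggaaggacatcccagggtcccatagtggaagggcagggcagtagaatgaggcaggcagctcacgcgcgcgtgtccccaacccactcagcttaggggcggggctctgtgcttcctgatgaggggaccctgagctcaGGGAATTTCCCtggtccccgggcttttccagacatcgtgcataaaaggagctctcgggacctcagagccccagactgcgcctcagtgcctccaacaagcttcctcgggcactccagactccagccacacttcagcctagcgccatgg
Cxcl3, chr5:90785851-90786150, plus strand: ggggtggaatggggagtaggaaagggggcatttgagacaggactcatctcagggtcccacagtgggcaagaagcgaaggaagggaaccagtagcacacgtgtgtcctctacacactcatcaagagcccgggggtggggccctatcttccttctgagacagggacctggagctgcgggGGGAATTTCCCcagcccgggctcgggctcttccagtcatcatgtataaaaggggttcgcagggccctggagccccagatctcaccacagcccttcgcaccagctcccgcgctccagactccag
Cxcl10, chr5:92348840-92349139, minus strand: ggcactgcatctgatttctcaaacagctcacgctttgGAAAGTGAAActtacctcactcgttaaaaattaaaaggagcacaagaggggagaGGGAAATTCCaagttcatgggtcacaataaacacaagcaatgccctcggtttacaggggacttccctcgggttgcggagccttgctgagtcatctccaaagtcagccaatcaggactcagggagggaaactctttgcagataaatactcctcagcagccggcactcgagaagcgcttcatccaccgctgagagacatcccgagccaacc

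Cxcl1, Cxcl2 and Cxcl3 each held the 11 letters GGGAATTTCCC, which begin 71, 97 and 73 bases before their starts. Of 27025 genes with a promoter in the table, 14 (0.0518%) held that run, and no other of the 37 chemokine and receptor genes did. The kB letters were in 6 of the 37 (16.2%), namely Ccl1, Ccr3, Cxcl1, Cxcl2, Cxcl3 and Cxcl10, against 1.63% of all genes with a promoter. The interferon response letters were in Cxcl10 and Cxcl14, or 5.41% of the 37, against 3.99% of all genes. AGATAA was in 8 of the 37 (21.6%), among them Ackr1 and Ccl17, against 12.7% of all genes. A match is a string of letters and not a measured binding site.

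Of the 49 genes, 46 passed the filter on low counts and were tested with edgeR's quasi-likelihood test over 19573 genes. Cxcl2, Ccl9 and Ccl17 rose in mutant spleens, and Xcl1, Ccr4, Ccr6, Ackr2, Ackr4 and the pseudogene Ccl19-ps1 fell. The 3 that rose are 6.52% of the 46, near the 5.08% of all genes tested that rose, and the 6 that fell compare with 6.90% of all genes that fell. All 3 mutants lay above all 3 controls for 8 of the 46 (17.4%, and 18.0% of all genes), and all below for 11 (23.9%, and 22.6% of all genes). None of the 9 calls remained without control 1, control 2 or control 3, where 0 genes of the family passed, while all genes called fell to between 4 and 8 higher and between 119 and 130 lower. Without mutant 2 the lower calls numbered 15, with Cxcl9, Cxcl12, Cxcl16, Ccl5, Ccl22, Ccr10, Ccr8, Cxcr3 and Cxcr6 among those added, in a fit that called 15.3% of all genes lower. The higher calls numbered 5 without mutant 1 (with Ccl12, Ccl2 and Ccl6, and with 8.73% of all genes higher), 5 without mutant 2 (with Cxcl3 and Ccl6, and 13.6% of all genes) and 4 without mutant 3 (with Cxcl14 and Ackr1, and 4.28% of all genes). Without control 1, 2 or 3, the share of all genes higher was 0.0294%, 0.0195% or 0.0392%, and the share lower was 0.636%, 0.581% or 0.627%. The share lower was 9.47% without mutant 1 and 6.17% without mutant 3. For mutant 3 alone against the controls, 25.7% of all genes were higher and 26.9% lower. By DESeq2, 10.3% of all genes were higher and 11.1% lower, by limma-voom 5.16% and 10.2%, and by limma-voom with each group weighted by its variance 3.71% and 4.02%. With edgeR, the shares higher and lower were 5.30% and 6.78% with relative log expression (RLE) scaling, 2.46% and 3.42% without the filter on low counts, and 4.78% and 6.20% without haemoglobin and immunoglobulin genes.

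The mutants differed widely from each other in these genes. The ratio of the highest to the lowest mutant had a median of 12.9 over the 46 genes and 2.30 over all genes tested, while among controls these medians were 1.41 and 1.22. Mutant 2 stood at least 4-fold above the control mean for 17 of the 46 genes (37.0%), a level reached by 5.93% of all genes in that animal. In mutant 1 the number was 6 (with 6.16% of all genes), and in mutant 3 it was 9 (19.6%, with 5.27%). At least 4-fold below the control mean were 23 genes in mutant 1 (50.0%, with 15.9% of all genes), 8 in mutant 2 (17.4%, with 8.62%) and 16 in mutant 3 (34.8%, with 14.8%). Mutant 2 was the highest mutant for 31 of the 46 genes (67.4%, and 35.3% of all genes). The highest member per kilobase of exon also differed by animal: Ccl9 in mutant 1 (97.8 CPM per kb), Ccl12 in mutant 2 (424.9 CPM per kb) and Cxcr4 in mutant 3 (35.0 CPM per kb), against Ccl5 in each control (70.5 to 114 CPM per kb).

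**Figure D1:**
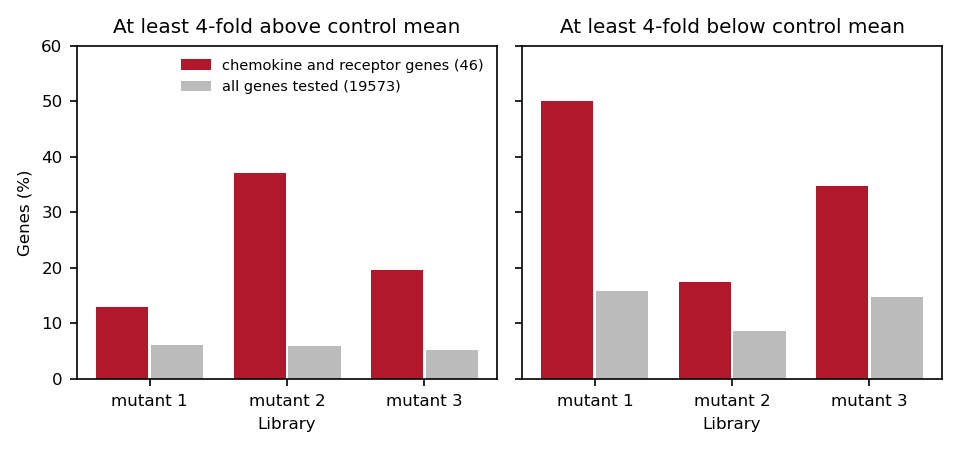
Share of genes (%, axis from 0) at least 4-fold above or below the control mean in each mutant library, for the 46 tested chemokine and receptor genes (red) and all 19573 genes tested (grey). Mutant 2 has 37.0% of the family above and mutant 1 has 50.0% below, and each red bar is taller than its grey bar.

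**Figure D2:**
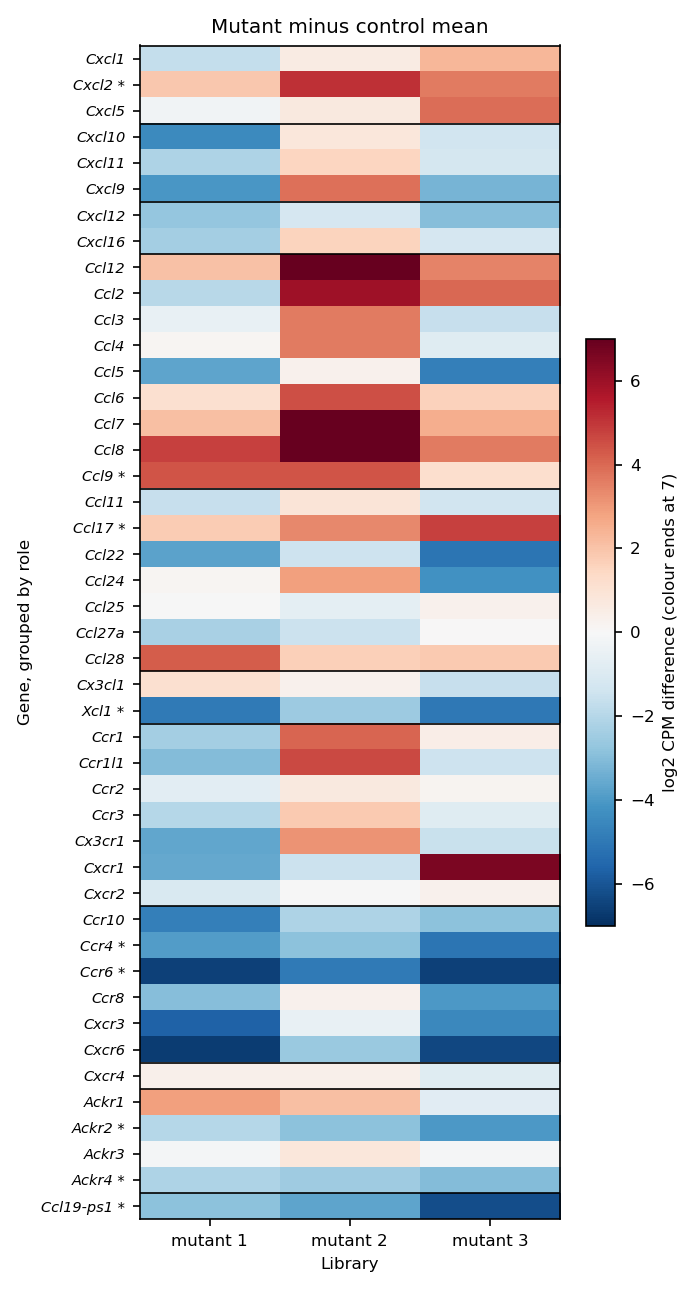
Difference in log2 CPM between each mutant library and the mean of the 3 controls for 45 of the tested genes, grouped by role (lines), with colours ending at a difference of 7, which Ccl12, Ccl8 and Ccl7 exceed in mutant 2, and an asterisk for genes called by edgeR. The column of mutant 2 is mostly above 0 in the myeloid ligands and receptors, while the lymphocyte receptors are below 0 in every mutant except Ccr8 in mutant 2.

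The neutrophil-attracting CXC ligands, which act on Cxcr2, were highest in mutant 3, apart from Cxcl2. Cxcl2, a chemokine that macrophages and neutrophils release early in inflammation (ENSMUSG00000058427, chromosome 5, 90903871 to 90905938 on GRCm38), stood at 0.494, 4.42 and 1.79 CPM in mutants 1, 2 and 3, against 0.0541, 0.116 and 0.215 CPM in controls 1, 2 and 3. Every mutant lay above every control, and Cxcl2 rose by edgeR (log2 fold change 4.17 ± 1.01 SE, adjusted p = 0.0493). That call was close to the threshold and was lost without mutant 3 (adjusted p = 0.0778), without any single control (0.159 to 0.193), with no filter on low counts (0.0501) and without haemoglobin and immunoglobulin genes (0.0513). By limma-voom none of the genes that rose passed (adjusted p = 0.071 for Cxcl2, 0.099 for Ccl9 and 0.0593 for Ccl17).

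Cxcl3, a close relative of Cxcl2, had 19, 7 and 1106 counts in mutants 1, 2 and 3, against 0, 0 and 6 counts in the controls. Mutant 3 alone carried 14.4 CPM, so Cxcl3 did not pass the filter and was not tested. Cxcl5, another Cxcr2 ligand, was at 1.73, 3.07 and 32.3 CPM in mutants 1, 2 and 3, against 2.02, 2.48 and 1.74 CPM in controls (adjusted p = 0.184). Its mutant and control ranges overlapped, with mutant 3 alone far above. Cxcl1, which is the mouse counterpart of human GRO ligands and was named after its values were seen, had 7, 39 and 153 counts in mutants and 21, 44 and 23 in controls (adjusted p = 0.471). Markers of neutrophils did not follow that order: the 10 listed, with 0 called by edgeR and 3 at an unadjusted p under 0.05, summed to 868, 2454 and 1133 CPM in mutants 1, 2 and 3, against 258 to 383 CPM in controls. In mutant 1, Csf3r alone gave 808 CPM of that sum. The median log2 difference of the 10 markers from the controls was -2.41, 3.15 and 1.45 in mutants 1, 2 and 3. In mutant 1 the sum and the median thus had opposite directions. Their part in these levels was not tested.

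The interferon-inducible ligands Cxcl9, Cxcl10 and Cxcl11 draw Cxcr3-bearing T and natural killer cells. Cxcl9 was at 0.823, 190 and 1.47 CPM in mutants 1, 2 and 3, against 10.7, 14.2 and 17.5 CPM in controls. Mutant 2 lay at 13.4 times the control mean and the other mutants lay below every control, so no common direction was called (log2 fold change 2.28 ± 1.89 SE, adjusted p = 0.457 by edgeR). Without mutant 2 it fell (log2 -3.65, adjusted p = 0.0066). Cxcl10 was at 0.453, 16.7 and 4.10 CPM in mutants, against 8.34, 9.68 and 13.4 CPM in controls (adjusted p = 0.792), again with mutant 2 above and the others below. Cxcl11, which GENCODE annotates as a polymorphic pseudogene in this strain's reference, stayed under 0.4 CPM in every library.

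Cxcl12, the stromal ligand of Cxcr4 (ENSMUSG00000061353, chromosome 6, 117168535 to 117181367), stood at 53.0, 139 and 44.8 CPM in mutants 1, 2 and 3, against 347, 335 and 328 CPM in controls. No mutant reached a control, yet the call missed the threshold narrowly (log2 fold change -2.05 ± 0.50 SE, adjusted p = 0.0507 by edgeR). Without mutant 2 Cxcl12 fell (log2 -2.81, adjusted p = 0.00132), and it also fell by DESeq2 (adjusted p = 0.00284) and limma-voom (adjusted p = 0.023). Its receptor Cxcr4, which retains progenitors and plasma cells near Cxcl12, was at 142, 128 and 63.3 CPM in mutants, against 107, 124 and 96.6 CPM in controls, with overlapping groups (log2 0.04 ± 0.34 SE, adjusted p = 0.942). The ratio of Cxcl12 to Cxcr4 CPM was 0.373, 1.09 and 0.708 in mutants and 3.24, 2.70 and 3.40 in controls. The 12 stromal markers, all detected and 2 of them lower, summed to 152, 552 and 352 CPM in mutants, against 485 to 620 CPM in controls, with Lum at 0 in mutant 1. In mutant 2, Col1a1 gave 152.4 CPM and Col1a2 151.6 CPM of that sum. The median log2 difference of the 12 markers from the controls was -1.904, -0.715 and -1.275 in mutants 1, 2 and 3. Des, Acta2, Dcn, Lum, Tcf21 and Lepr were among the markers below every control in every mutant. Pdgfrb was above every control in every mutant, and Col1a1, Col1a2, Col3a1 and Pdgfra had overlapping groups. The part of stromal cells in the level of Cxcl12 was not tested.

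Cxcl16, a membrane-bound ligand of Cxcr6, was at 5.99, 86.4 and 14.1 CPM in mutants 1, 2 and 3, against 29.0, 30.1 and 35.1 CPM in controls (adjusted p = 0.879). Mutant 2 was above the controls and the others below them, and without mutant 2 Cxcl16 fell (log2 -1.68, adjusted p = 0.0349). Reads of Zmynd15 overlap Cxcl16 on the opposite strand over 552 bases, so the split between them is uncertain without a stated strand setting. Cxcl14, a CXC ligand of epithelia and fibroblasts, did not pass the filter for the edgeR test and was named after its values were seen. It had 31, 23 and 7 counts in mutants and 0 in each control. Set against a floor of 3 counts over the control group, it was at least 21.0-fold higher in mutants. Fits that could test it called it higher without the filter (adjusted p = 0.0467), by DESeq2 (0.000322) and without mutant 3 (0.0489), but not without a control (0.133 to 0.142).

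Of the 9 CC ligands that attract monocytes, macrophages and other myeloid cells, Ccl9 rose and the others were not called. At an unadjusted p under 0.05, 6 of the 9 were higher, Ccl9 among them. The share of all genes at that threshold is not given here, so this count cannot be read as particular to these ligands. Ccl9, a macrophage-derived ligand of Ccr1 (ENSMUSG00000019122, chromosome 11, 83572919 to 83578636), was at 298, 273 and 32.1 CPM in mutants 1, 2 and 3, against 12.5, 15.5 and 13.95 CPM in controls. All mutants lay above all controls and Ccl9 rose (log2 fold change 3.88 ± 0.84 SE, adjusted p = 0.0362 by edgeR). It did not pass without mutant 1 (adjusted p = 0.053) or without any single control (0.150 to 0.165). Markers of granulocyte progenitors with primary granules, of which 5 of 6 tested rose, summed to 581, 350.4 and 395 CPM in mutants and 23.9 to 55.6 CPM in controls, and their part was not tested. The neighbour of Ccl9, Ccl6, also a Ccr1 ligand of mouse myeloid cells, was at 41.5, 405 and 60.6 CPM in mutants, against 14.5, 23.2 and 21.0 CPM in controls. The groups did not overlap, but Ccl6 did not pass (log2 3.18 ± 0.97 SE, adjusted p = 0.0853). Other fits that called it included those without mutant 1 (adjusted p = 0.0423), without mutant 2 (0.0233), by DESeq2 (0.00319) and for mutant 3 alone against the controls.

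**Figure D3:**
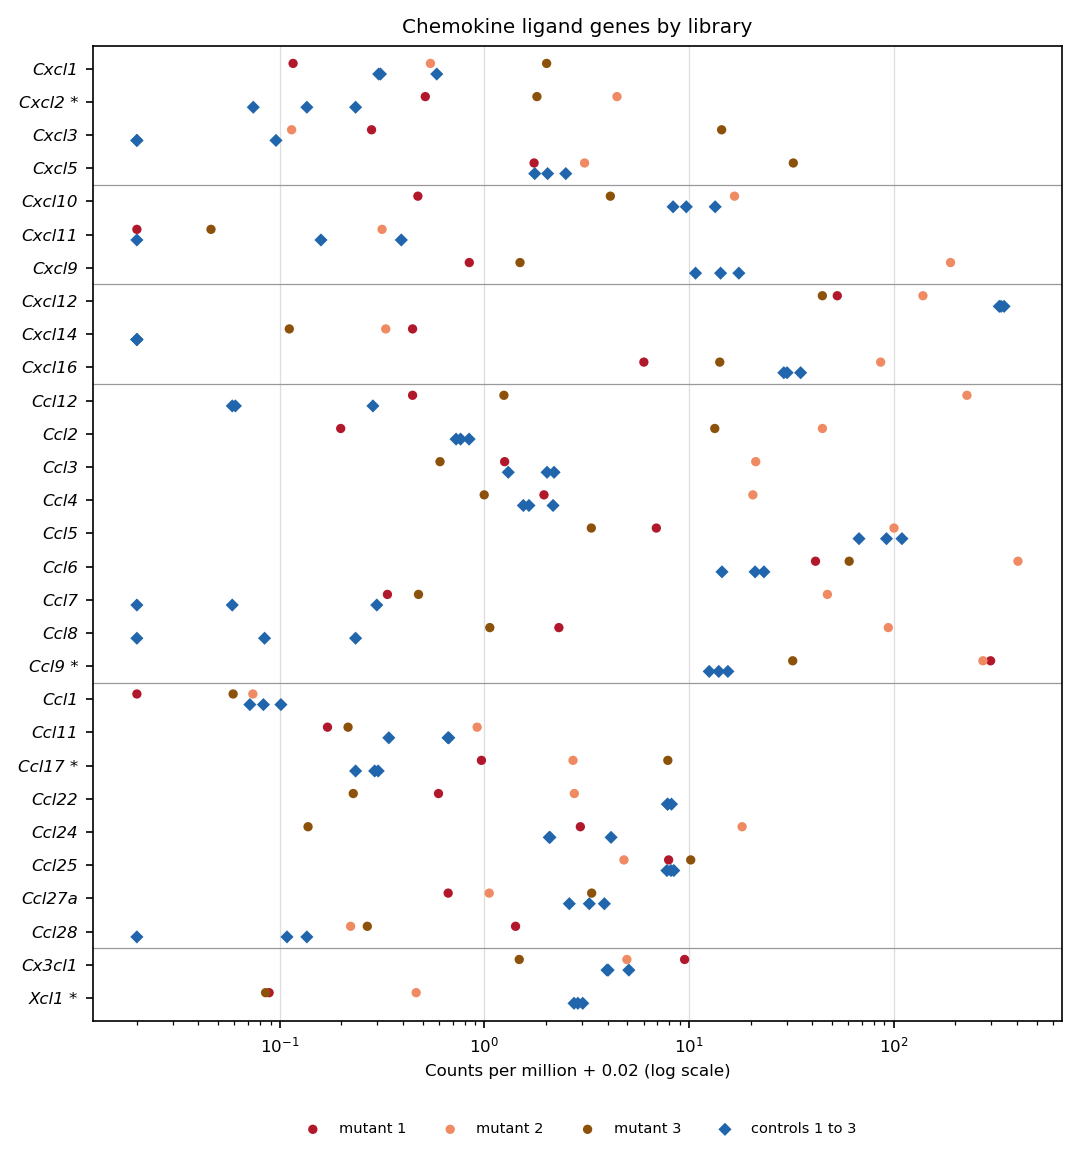
CPM + 0.02 (log axis) of the 29 ligand genes in each library, mutants as coloured circles and controls as blue diamonds, with lines between role classes and an asterisk for genes called by edgeR. Mutant 2 lies to the right of all other libraries for Ccl12, Ccl8, Ccl7, Ccl6 and Cxcl9, and mutant 3 for Cxcl3, Cxcl5 and Ccl17.

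Ccl2, Ccl7 and Ccl12 are ligands of Ccr2, the receptor that brings monocytes out of the marrow. These genes and their neighbour Ccl8 were at their highest in mutant 2. Ccl12 had 31, 16970 and 94 counts in mutants 1, 2 and 3, against 3, 3 and 21 counts in controls, which is 0.425, 228 and 1.23 CPM in the mutants. Ccl8 had 167, 7004 and 80 counts in mutants, against 0, 5 and 17 in controls, and Ccl7 had 23, 3528 and 35 counts in mutants, against 0, 3 and 22 in controls. For all of these the mutants lay above the controls, but 1 animal carried nearly all reads and none passed (adjusted p = 0.0905 for Ccl12, 0.0737 for Ccl8 and 0.122 for Ccl7 by edgeR). Ccl12 rose without mutant 1 (log2 10.05, adjusted p = 0.0482). Ccl2, the best-known monocyte attractant, was at 0.178, 44.9 and 13.3 CPM in mutants, against 0.744, 0.821 and 0.707 CPM in controls (adjusted p = 0.113). Mutants 2 and 3 were above and mutant 1 below every control, and Ccl2 rose without mutant 1 (log2 5.33, adjusted p = 0.0111) and by DESeq2 (adjusted p = 0.00166).

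Ccl3 and Ccl4, made by activated macrophages and lymphocytes, stood at 21.2 and 20.5 CPM in mutant 2. In mutants 1 and 3 Ccl3 was at 1.23 and 0.586 CPM and Ccl4 at 1.93 and 0.977 CPM, against 1.29 to 2.17 CPM for Ccl3 and 1.53 to 2.15 CPM for Ccl4 in controls (adjusted p = 0.328 and 0.254 by edgeR). Ccl5, a ligand typical of cytotoxic T and natural killer cells, was at 6.90, 100.4 and 3.31 CPM in mutants, against 67.7, 92.3 and 109.8 CPM in controls. Only mutants 1 and 3 were below the controls, and without mutant 2 Ccl5 fell (log2 -4.16, adjusted p = 0.00575), while with all libraries it did not pass (adjusted p = 0.549). The 8 natural killer markers, with 0 called by edgeR and 1 at an unadjusted p under 0.05, summed to 10.9, 50.1 and 34.5 CPM in mutants, against 78.2 to 93.8 CPM in controls. In mutant 3, Prf1 alone gave 31.4 CPM, and the other 7 summed to 9.97, 42.9 and 3.13 CPM in mutants, against 62.5 to 79.9 CPM in controls. Their part in the Ccl5 level was not tested.

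Among ligands linked to type 2 responses, skin and mucosa, Ccl17 rose, while Ccl22, which also binds Ccr4, lay below the controls in every mutant and was not called. Ccl17 (ENSMUSG00000031780, chromosome 8, 94810453 to 94812036) was at 0.947, 2.69 and 7.86 CPM in mutants 1, 2 and 3, against 0.271, 0.282 and 0.215 CPM in controls. Each mutant was above each control and Ccl17 rose (log2 3.88 ± 0.84 SE, adjusted p = 0.0371 by edgeR), a call kept without any single mutant (0.0121 to 0.0484) and lost without any single control (0.157 to 0.176). Ccl22 was at 0.576, 2.73 and 0.208 CPM in mutants, against 7.85, 8.19 and 7.82 CPM in controls. Every mutant was below every control, but Ccl22 did not pass (log2 -2.69 ± 0.97 SE, adjusted p = 0.122) by edgeR with all libraries. Among the other fits, it passed without mutant 2 (0.00904), by DESeq2 (0.0167), by limma-voom (0.0341), just under the threshold when each group had its own variance weight (0.04998), and for mutant 3 alone against the controls (3.85e-06).

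Dendritic cells are a usual source of both Ccl17 and Ccl22. The 8 dendritic markers, all detected and 1 lower, summed to 69.6, 330.5 and 37.3 CPM in mutants and to 225 to 252 CPM in controls. In mutant 2, Clec10a alone gave 204 CPM, and the other 7 summed to 43.4, 127 and 34.2 CPM in mutants, against 218 to 242 CPM in controls, with the part of these cells not tested. Ccl24, an eosinophil attractant, was at 2.92, 18.2 and 0.117 CPM in mutants, against 2.07, 2.05 and 4.14 CPM in controls (adjusted p = 0.532). Ccl25, the ligand of Ccr9, was nearly level, at 7.93, 4.79 and 10.2 CPM in mutants and 8.40, 7.78 and 8.14 CPM in controls (adjusted p = 0.870), though it overlaps Elavl1 on the opposite strand. Ccl27a, a ligand of Ccr10, was at 0.645, 1.04 and 3.32 CPM in mutants, against 3.23, 2.58 and 3.84 CPM in controls (adjusted p = 0.361). The remaining genes of this class were at means under 1 CPM in both groups. Ccl28, named after its values were seen, had 102, 15 and 19 counts in mutants and 0, 9 and 7 in controls (adjusted p = 0.153 by edgeR and 0.0476 by DESeq2).

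Xcl1, which natural killer and activated CD8 T cells use to draw cross-presenting dendritic cells (ENSMUSG00000026573, chromosome 1, 164931644 to 164935527), had 5, 33 and 5 counts in mutants, against 210, 212 and 238 in controls. It fell (log2 -3.82 ± 0.91 SE, adjusted p = 0.0467 by edgeR), with no overlap between groups. The call was lost without mutant 1 (adjusted p = 0.0567), without mutant 3 (0.079), without any single control (0.156 to 0.165) and with no filter on low counts (0.0501). Its receptor Xcr1 was at 0.137, 14.9 and 0.743 CPM in mutants, against 15.9, 17.4 and 23.6 CPM in controls (adjusted p = 0.467, and 0.0127 without mutant 2). Cx3cl1, the membrane-anchored ligand of Cx3cr1 on endothelium, was at 9.49, 4.95 and 1.46 CPM in mutants 1, 2 and 3, against 3.95, 4.003 and 5.06 CPM in controls (adjusted p = 0.783), so its groups overlapped.

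Among the receptors of myeloid cells, mutant 2 was the highest mutant except for Cxcr1 and Cxcr2, where mutant 3 was. By edgeR 0 of the 8 passed, with 0 also at an unadjusted p under 0.05. DESeq2 called none of those for which it gave an adjusted p, and gave no adjusted p for some, among them Ccr1l1, Cx3cr1 and Cxcr1. Cx3cr1, a receptor of patrolling monocytes and tissue macrophages, was at 2.13, 226 and 9.28 CPM in mutants 1, 2 and 3, against 22.9, 26.4 and 31.9 CPM in controls (adjusted p = 0.505). Mutant 2 was above every control and the other mutants below every control.

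Ccr1, the receptor of Ccl3, Ccl6 and Ccl9, was at 1.82, 149 and 13.1 CPM in mutants, against 9.57, 7.46 and 11.4 CPM in controls (adjusted p = 0.266). Its near copy Ccr1l1 was at 0.0412, 12.6 and 0.182 CPM in mutants, against 0.609, 0.988 and 0.227 CPM in controls (adjusted p = 0.356), and reads could be divided between such relatives in ways the counts do not show. Ccr3, known from eosinophils, was at 5.16, 68.4 and 11.7 CPM in mutants, against 17.2, 23.0 and 20.8 CPM in controls (adjusted p = 0.720). Mutant 2 was far above the controls in these 3 genes, and for Ccr1 mutant 3 was above them as well. Ccr2 had the smallest fold change of the 8, at 24.0, 58.0 and 45.1 CPM in mutants and 35.0, 39.0 and 42.9 CPM in controls (log2 0.15 ± 0.35 SE, adjusted p = 0.804).

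The 10 monocyte and macrophage markers were all detected, with 1 of them higher by edgeR. They summed to 244, 8377 and 780.1 CPM in mutants 1, 2 and 3, against 1331 to 1817 CPM in controls. In mutant 2, Lyz2 alone gave 4711 CPM of that sum. F13a1 and Cd14 lay above every control in every mutant, and the other markers had overlapping groups. The median log2 difference of the 10 markers from the controls was -2.77, 3.08 and -0.22 in mutants 1, 2 and 3. The 8 myeloid receptors summed to 38.4, 646 and 127 CPM in the same mutants, against 115 to 148 CPM in controls, which is the same order of the mutants. The 9 myeloid-attracting ligands did not share that order, at 353, 1235 and 114 CPM in mutants, against 99.0 to 150 CPM in controls. The part of the marker-bearing cells in these levels was not tested. The 10 eosinophil, basophil and mast cell markers, with 8 tested and 1 lower, summed to 278, 9.96 and 2.76 CPM in mutants and 36.7 to 37.9 CPM in controls. In mutant 1, Fcer1a gave 169 CPM and Prg2 85.2 CPM of that sum. Epx was at 0 in mutant 3 and control 2. The part of these cells in the level of Ccr3 was not tested.

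Cxcr1 and Cxcr2 are neighbouring neutrophil receptors, and only Cxcr1 was far from the controls in mutant 3. Cxcr1 had 0, 6 and 2429 counts in mutants 1, 2 and 3, against 25, 24 and 19 in controls, so that mutant 3, at 31.6 CPM, lay at 107 times the control mean while the other mutants lay below it (adjusted p = 0.237). Cxcr2 was at 3.90, 7.38 and 10.4 CPM in mutants, against 6.67, 8.53 and 9.60 CPM in controls, with overlapping groups (log2 -0.19 ± 0.42 SE, adjusted p = 0.793). The ratio of Cxcr1 to Cxcr2 CPM was 0, 0.0109 and 3.05 in mutants 1, 2 and 3, against 0.0507, 0.0361 and 0.025 in controls. Cxcr2 was near the controls in mutant 2, the mutant whose summed neutrophil markers, given above, were the highest of all libraries.

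**Figure D4:**
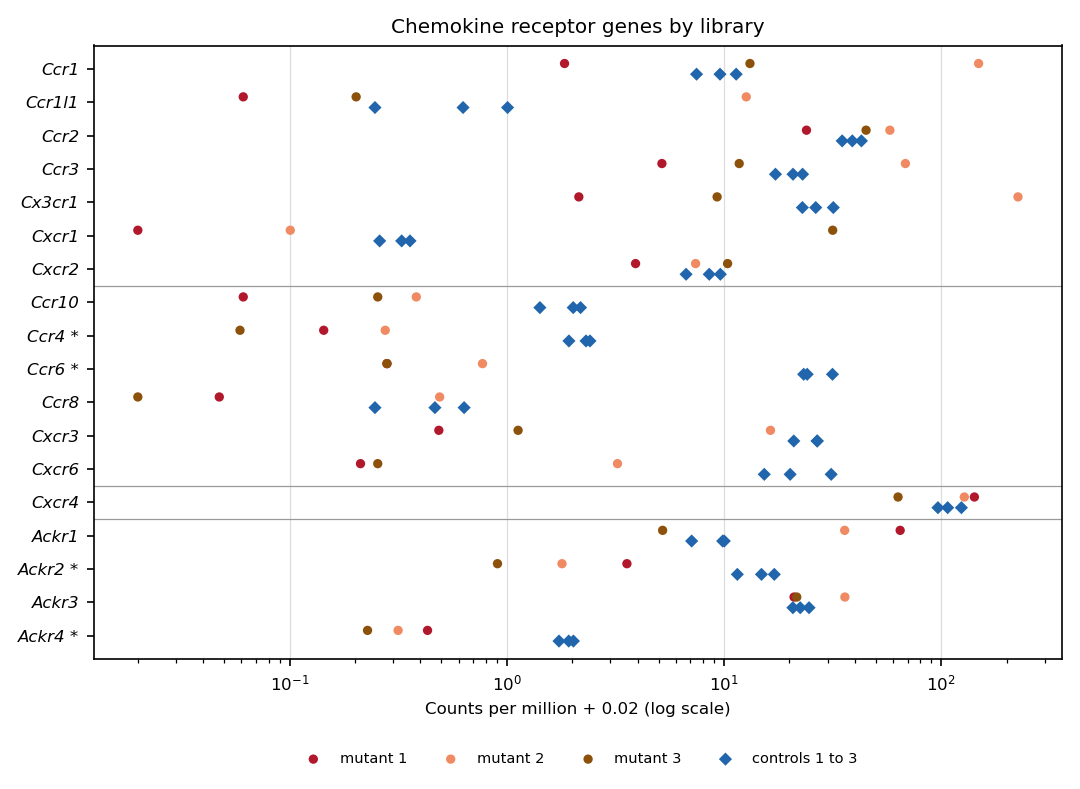
CPM + 0.02 (log axis) of 18 receptor genes in each library, mutants as coloured circles and controls as blue diamonds, with lines between role classes and an asterisk for genes called by edgeR. Cx3cr1 and Ccr1 have mutant 2 far to the right, Cxcr1 has mutant 3 alone at 31.6 CPM, and the lymphocyte receptors have their mutants to the left of the controls except Ccr8.

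Of the 6 receptors of lymphocytes, Ccr4 and Ccr6 fell and the other 4 were not called. Ccr6, carried by B cells and Th17 cells (ENSMUSG00000040899, chromosome 17, 8236043 to 8257141), was at 0.261, 0.753 and 0.261 CPM in mutants 1, 2 and 3, against 24.1, 23.3 and 31.6 CPM in controls. Ccr6 fell further than any other of the 46 genes (log2 -5.90 ± 0.61 SE, adjusted p = 0.0072 by edgeR), and passed without each mutant in turn (0.000815 to 0.0167) but not without a control (0.0521 to 0.0547). Ccr4, a receptor of Th2, regulatory and skin-homing T cells (ENSMUSG00000047898, chromosome 9, 114490316 to 114504916), had 9, 19 and 3 counts in mutants, against 177, 149 and 182 in controls. It fell (log2 -3.92 ± 0.74 SE, adjusted p = 0.0267), also without each mutant in turn (0.00914 to 0.0412), but not without a control (0.116 to 0.123) or with a variance weight for each group (0.0597).

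Cxcr6, a receptor of effector T cells and natural killer T cells, was at 0.192, 3.21 and 0.235 CPM in mutants, against 20.1, 15.3 and 31.1 CPM in controls (adjusted p = 0.0858, but 0.00253 without mutant 2, 0.00121 by DESeq2 and 0.0169 by limma-voom). Cxcr3, the receptor of Cxcl9 and Cxcl10 and a gene of the X chromosome, was at 0.466, 16.4 and 1.11 CPM in mutants, against 26.9, 20.9 and 26.8 CPM in controls (adjusted p = 0.342, and 0.00463 without mutant 2). Ccr10, a receptor of skin-homing T cells and IgA plasma cells, had 3, 27 and 18 counts in mutants, against 160, 156 and 111 in controls. Its call missed narrowly (log2 -3.09 ± 0.80 SE, adjusted p = 0.0573) and was made without mutant 1 (0.0243), without mutant 2 (0.0296), by DESeq2 (0.000474) and by limma-voom (0.0299). No mutant overlapped a control in these 5 receptors, whereas the sixth, Ccr8, had 2, 35 and 0 counts in mutants and 33, 48 and 18 in controls (adjusted p = 0.571, and 0.0362 without mutant 2). The 10 T-cell markers, all detected and 3 lower, summed to 44.9, 325 and 30.5 CPM in mutants, against 865 to 1080 CPM in controls. In mutant 2, Cd4 alone gave 197 CPM of that sum and lay above every control. The median log2 difference of the 10 markers from the controls was -5.57, -2.62 and -5.79 in mutants 1, 2 and 3. The 10 B-cell markers, all detected and all lower, summed to 109, 101 and 49.4 CPM in mutants, against 6334 to 7088 CPM in controls. The part of these cells in the receptor levels was not tested.

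Of the atypical receptors, Ackr2 and Ackr4 fell and Ackr1 and Ackr3 did not pass. Ackr2, a scavenger of inflammatory CC chemokines (ENSMUSG00000044534, chromosome 9, 121898355 to 121911074), was at 3.55, 1.77 and 0.886 CPM in mutants 1, 2 and 3, against 14.9, 11.5 and 17.0 CPM in controls (log2 -2.79 ± 0.57 SE, adjusted p = 0.0315 by edgeR). Ackr4, which takes up Ccl19, Ccl21 and Ccl25 (ENSMUSG00000079355, chromosome 9, 104084157 to 104126933), had 30, 22 and 16 counts in mutants, against 141, 134 and 159 in controls (log2 -2.60 ± 0.43 SE, adjusted p = 0.0188), and shares 479 exonic bases with Acad11 on the opposite strand. Their groups did not overlap, and both calls were kept without each mutant in turn (0.0147 to 0.0408 for Ackr2 and 0.0144 to 0.0283 for Ackr4) and lost without any single control (0.121 to 0.141 and 0.104 to 0.109) and with a variance weight for each group (0.0776 and 0.0821).

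Ackr1, the Duffy antigen receptor of erythroid cells and venules, was at 64.7, 35.9 and 5.20 CPM in mutants, against 10.0, 9.84 and 7.08 CPM in controls. Mutants 1 and 2 were above and mutant 3 below every control (log2 1.99 ± 0.83 SE, adjusted p = 0.164), and without mutant 3 Ackr1 rose (adjusted p = 0.0203). Its exons partly overlap those of Cadm3 on the same strand, so the split of reads between them is uncertain. The 10 erythroid markers, with 0 called by edgeR and 3 at an unadjusted p under 0.05, had a median difference from the controls of -0.97, 2.46 and -0.21 on the log2 scale in mutants 1, 2 and 3. The sum of the globin genes Hba-a1, Hbb-bs and Hbb-bt was 0.0682, 0.609 and 0.0188 times the control mean in mutants 1, 2 and 3, and that of the other 7 was 0.368, 3.22 and 0.964 times the control mean. The 10 endothelial markers, all detected with 1 higher and 1 lower, summed to 805, 564 and 1145 CPM in mutants, against 699 to 821 CPM in controls. The part of erythroid and endothelial cells in the level of Ackr1 was not tested. Ackr3, a second receptor for Cxcl12 that removes it, was at 21.0, 36.0 and 21.6 CPM in mutants, against 20.7, 22.4 and 24.6 CPM in controls (adjusted p = 0.614).

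Ccl19-ps1, an unprocessed pseudogene on chromosome 4 (41921405 to 41923020), had 138, 74 and 13 counts in mutants, against 1059, 930 and 1243 in controls, and fell (log2 -3.76 ± 0.86 SE, adjusted p = 0.0421 by edgeR). It did not pass without mutant 2 (0.0563) or without any single control (0.139 to 0.156). Its transcript is identical to Ccl19 at 322 of 325 aligned bases (99.1%), so reads of these genes are uncertain. The ratio of Ccl19-ps1 to Ccl19 CPM was 8.63, 0.612 and 0.197 in mutants 1, 2 and 3, against 0.239 to 0.250 in controls. The homing genes left out of the family were all lower in mutants: of the 6 in the table, 6 fell, and they summed to 14.7, 51.8 and 20.9 CPM in mutants, against 857 to 1068 CPM in controls.

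Neighbouring genes did not always move together. On chromosome 11, 6 ligands lie between 82035571 and 82305690, in the order Ccl2, Ccl7, Ccl11, Ccl12, Ccl8 and Ccl1. In mutants 2 and 3, Ccl2, Ccl7, Ccl12 and Ccl8 were at least 4 times the control mean CPM. In mutant 1, 1 of the 6 was. On the log2 scale, 6.16%, 5.93% and 5.27% of all genes were at least 4-fold above in mutants 1, 2 and 3. Ccl11, which attracts eosinophils and sits between Ccl7 and Ccl12, had 11, 67 and 15 counts in mutants and 48, 25 and 51 in controls (adjusted p = 0.825). Ccl1, a ligand of Ccr8, had at most 6 counts in any library. On chromosome 8, Ccl22, Cx3cl1 and Ccl17 lie within 66.4 kb, and every mutant was below every control for Ccl22 and above for Ccl17. On chromosome 5, all 4 genes from Cxcl5 to Cxcl2, within 147 kb, were at least 4 times the control mean in mutant 3. Further along, Cxcl9, Cxcl10 and Cxcl11, within 44.1 kb, had 0 such genes in mutant 3 and 1 in mutant 2. Cxcr2 and Cxcr1 lie 30.5 kb apart on chromosome 1.

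Chemokines and receptors with other names gave 1 gene higher and 1 lower among 9 tested. Xcr1, given above, was among those not called. Pf4, the platelet chemokine Cxcl4, was at 586, 247 and 1308 CPM in mutants 1, 2 and 3, against 111, 125 and 62.7 CPM in controls, and rose (log2 2.81 ± 0.64 SE, adjusted p = 0.0415 by edgeR). It did not pass without mutant 3 (0.0602), without any single control (0.141 to 0.173) or with a variance weight for each group (0.0991). Ppbp, the other main platelet chemokine, was at 203, 411 and 31.2 CPM in mutants, against 221, 230.0 and 118 CPM in controls (adjusted p = 0.878). The 9 platelet and megakaryocyte markers, which include both genes, were all detected with 3 higher and summed to 3069, 1152 and 4924 CPM in mutants, against 368 to 686 CPM in controls, and their part was not tested. Cklf, a chemokine-like factor, fell (log2 -1.16 ± 0.28 SE, adjusted p = 0.0487), at 9.81, 17.2 and 13.4 CPM in mutants, against 28.8, 32.4 and 30.4 CPM in controls. Cklf did not pass with RLE scaling (0.0506), without the filter (0.073), with a variance weight for each group (0.0774), without mutant 3 (0.0952) or without any single control (0.174 to 0.196).

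Ccrl2, which presents the attractant chemerin without signalling, was at 12.7, 19.6 and 43.0 CPM in mutants, against 6.36, 7.01 and 7.58 CPM in controls (adjusted p = 0.0531, and 0.0174 without mutant 1 or 0.0454 without mutant 2, 0.00295 by DESeq2, and 0.0407 where limma-voom weighted the variance of each group). Cmklr1, the signalling receptor of chemerin, was at 2.40, 104 and 7.48 CPM in mutants, against 10.5, 8.98 and 11.3 CPM in controls (adjusted p = 0.351), and Rarres2, which encodes chemerin, was at 3.58, 6.41 and 5.88 CPM in mutants, against 9.20, 11.4 and 13.7 CPM in controls (adjusted p = 0.0955). Mif, a cytokine that can act on Cxcr2 and Cxcr4, was at 574, 171 and 204 CPM in mutants, against 118, 116 and 124 CPM in controls (adjusted p = 0.105). Its partner Cd74, the class II invariant chain, was at 120.0, 7433 and 131 CPM in mutants, against 6938, 8053 and 8981 CPM in controls (adjusted p = 0.543). By DESeq2 Rarres2 fell (adjusted p = 0.0274) and Mif rose (0.0441). Without mutant 2, Rarres2 fell (log2 -1.31, adjusted p = 0.0432), Mif rose (log2 1.68, adjusted p = 0.0444), as it did without mutant 1 (log2 0.68, adjusted p = 0.0242), and Cd74 fell (log2 -6.02, adjusted p = 0.000422).

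Of 29 tested genes of chemokine receptor signalling, 2 fell and 0 rose by edgeR. That share, 2 of 29, is near the 6.90% of all genes that fell. The list holds genes that limit the signal, such as the Grk and Rgs genes, as well as genes that carry it. At an unadjusted p under 0.05, 6 were lower and 2 higher, and by DESeq2 4 were lower and 1 higher. Without the share of all genes at that unadjusted threshold, its counts cannot be read as particular to these signalling genes. The genes that fell by edgeR were Grk6, a kinase that switches off chemokine receptors, at 182, 174 and 171 CPM in mutants and 424, 414 and 461 CPM in controls (log2 -1.29 ± 0.16 SE, adjusted p = 0.0104 by edgeR), and Rgs14, a regulator of G protein signalling, at 34.4, 25.2 and 45.1 CPM in mutants and 87.6, 80.2 and 93.9 CPM in controls (log2 -1.32 ± 0.22 SE, adjusted p = 0.0188). Both calls were lost without any single control (0.0805 to 0.0817 for Grk6 and 0.0978 to 0.112 for Rgs14). Gnai2, the main inhibitory G protein subunit of leukocytes and the most abundant gene of the list, was at 845, 981 and 815 CPM in mutants, against 965, 996 and 1055 CPM in controls (adjusted p = 0.606).

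Of 18 tested genes listed as inducers of inflammatory chemokines, 4 fell and 0 rose by edgeR. Of all genes tested, 6.90% fell. At an unadjusted p under 0.05, 8 of the list were lower and 2 higher, and by DESeq2 4 were lower and 1 higher. Without the share of all genes at that unadjusted threshold, its counts cannot be read as particular to this list. The list also holds the NF-kB inhibitors Nfkbia and Tnfaip3, which were among those 8 and were not called by edgeR. The 2 higher were Il6 and Myd88, named after their values were seen. Il6 was at 3.37, 0.242 and 11.6 CPM in mutants, against 0.217, 0.526 and 0.0631 CPM in controls (log2 4.18 ± 1.46 SE, adjusted p = 0.115 by edgeR). Myd88 was at 62.4, 84.2 and 81.5 CPM in mutants, against 50.6, 53.5 and 54.9 CPM in controls (adjusted p = 0.113 by edgeR). Nfkb2, which encodes a subunit of the noncanonical NF-kB pathway, was at 35.6, 41.5 and 57.1 CPM in mutants, against 167, 168 and 187 CPM in controls (log2 -1.95 ± 0.21 SE, adjusted p = 0.00745). Its partner Relb was at 16.7, 27.8 and 25.7 CPM in mutants, against 94.2, 104 and 115 CPM in controls (log2 -2.14 ± 0.26 SE, adjusted p = 0.00941). Rel, the lymphocyte-rich NF-kB subunit c-Rel, was at 33.3, 30.0 and 7.22 CPM in mutants, against 124, 129 and 148 CPM in controls (log2 -2.47 ± 0.58 SE, adjusted p = 0.0452). Tnf, a cytokine that induces many of these ligands and was named after its values were seen, was at 2.85, 7.36 and 4.25 CPM in mutants, against 16.01, 16.7 and 17.1 CPM in controls (log2 -1.75 ± 0.43 SE, adjusted p = 0.0499). The calls of Nfkb2, Relb and Rel were lost without any single control (0.0593 to 0.0608 for Nfkb2, 0.0628 to 0.0696 for Relb and 0.148 to 0.162 for Rel), as was that of Tnf (0.179 to 0.189), and that of Rel was lost without mutant 1 (0.0522) and without the filter (0.0512). Tnf also did not pass without mutant 3 (0.101), with RLE scaling (0.0513), without the filter (0.062) or without haemoglobin and immunoglobulin genes (0.0505). Nfkb1, the most abundant of the list, was at 279, 123 and 174 CPM in mutants, against 237, 250 and 284 CPM in controls (adjusted p = 0.380). Expression of B-cell markers, summed above, was low in the same mutants, and its part was not tested.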

How the data were processed

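The authors deposited raw read counts for each Ensembl gene as whole numbers in 1 table. The submitters' processing notes name STAR 2.5.3a, limma, mm10 and GRCm38, with no roles. Strand setting, annotation release and the handling of multi-mapping reads: not given in the sources used here. Of 31771 identifiers, 31669 matched a symbol. Lengths and positions came from GENCODE M21 (GRCm38).

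CPM are counts scaled to the library total, without TMM factors. The test was edgeR 4.0.16 (R 4.3.3) with TMM, genes filtered with filterByExpr, robust dispersions, and p-values adjusted after Benjamini and Hochberg (0.05) over 19573 genes. The SE is the log2 fold change over the square root of F. Single-library log2 differences used a prior count of 2. The members and lists were chosen with earlier results of these data known. Every called member, and every member at 1 CPM or more in either group, was named, with up to 3 called genes and the most abundant of each other list; exceptions are marked where they stand. The fit was checked on simulated counts in which both groups had the same spread. That check does not cover groups of unequal spread such as these. Alternatives were RLE scaling, no filter, DESeq2 1.42.0, limma-voom (limma 3.58.1) with and without a variance weight for each group, haemoglobin and immunoglobulin genes left out, and each library left out. A fit of mutant 3 alone was added after seeing the data. P-values set the difference between mutants and controls against the spread between these animals. In edgeR that spread is estimated over both groups together, although mutants varied more than controls. Counts at an unadjusted p under 0.05 are given without the share of all genes at that threshold. Values of 1 member are not reported here.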

Additional observations from a re-analysis of the deposited data

How the results depend on the processing

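Counts of called genes depended on the test and on single libraries. Family members higher and lower numbered 3 and 6 by edgeR, 7 and 10 by DESeq2, 0 and 10 by limma-voom, and 10 and 24 for mutant 3 alone against the controls, where the lone mutant is assumed to vary like the controls. Over all genes, the shares higher and lower were 10.3% and 11.1% by DESeq2, 5.16% and 10.2% by limma-voom, and 25.7% and 26.9% for mutant 3 alone. The higher and lower calls made by edgeR were all shared by DESeq2, and the 6 lower calls also by limma-voom. With 1 library left out, the members higher ranged from 0 to 5 and those lower from 0 to 15. The receptor signalling genes higher (0) and lower (2) became 1 and 4 by DESeq2, 0 and 4 by limma-voom, and 1 and 5 with a variance weight for each group, and ranged from 0 to 4 and from 0 to 7 with 1 library left out. The inducer genes higher (0) and lower (4) became 1 higher by DESeq2 and 2 lower without the filter, and ranged from 0 to 1 and from 0 to 10 with 1 library left out. Among the family members, the counts of 0 with 1 library left out came when a control was left out. RLE scaling changed no count of members. DESeq2 gave no adjusted p for some genes, among them Cxcl9 and Ccl12.

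The log2 fold changes of 10 genes, none of them called, changed sign by limma-voom without and with a variance weight for each group: Ccl24 -0.519 and -0.561, Ccr1l1 -0.133 and -0.144, Ccr3 -0.357 and -0.361, Cx3cl1 -0.083 and -0.092, Cx3cr1 -0.759 and -0.767, Cxcl16 -0.717 and -0.721, Cxcl9 -1.24 and -1.26, Cxcr1 -0.077 and -0.058, Cxcr4 -0.045 and -0.047, Ppbp -0.395 and -0.401. With 1 library left out, these uncalled genes crossed 0 over the ranges given: Cxcl1 -0.22 to 1.72, Cxcl10 -2.23 to 0.071, Cxcl11 -3.57 to 0.72, Cxcl9 -3.65 to 2.86, Cxcl16 -1.68 to 0.77, Ccl3 -1.03 to 2.71, Ccl4 -0.30 to 2.76, Ccl11 -1.65 to 0.11, Ccl24 -0.87 to 2.03, Ccl25 -0.32 to 0.13, Cx3cl1 -0.36 to 0.76, Ccr1 -0.37 to 3.20, Ccr1l1 -2.47 to 3.48, Ccr2 -0.21 to 0.45, Ccr3 -1.30 to 1.06, Cx3cr1 -2.28 to 2.22, Cxcr1 -2.75 to 5.70, Cxcr2 -0.49 to 0.13, Cxcr4 -0.14 to 0.34, Ackr3 -0.12 to 0.41, Ppbp -0.73 to 0.75, Cmklr1 -1.09 to 2.54. The cause was not tested. Median log2 fold changes over all genes were 0.10 by edgeR with TMM, 0.20 without the filter and -0.02 by limma-voom. No paired analysis was possible because replicate numbers only follow accession order. Counting noise limits genes with few reads, such as Ccl1 and Cxcl11.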
